A study of Mus musculus with 12 samples.

Results

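The mitochondrial carriers of the solute carrier family 25 were described by their LSD1 and H3K4me2 promoter peaks in mouse liver. The set was every protein-coding gene of GENCODE mouse release 21 whose name starts with Slc25a, together with Ucp1, Ucp2 and Ucp3, which gave 50 of 21853 protein-coding genes. A promoter was 1 kb on either side of any transcription start site (TSS) of a protein-coding transcript. The 50 carriers had 130 TSSs, from 1 to 13 per gene, and promoters of 2001 to 8394 bp.

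Mitochondrial carriers are small membrane proteins that sit, for the most part, in the inner mitochondrial membrane and move metabolites, nucleotides, phosphate, cofactors and iron between the cytosol and the matrix. In hepatocytes they feed the urea cycle, gluconeogenesis, fatty acid oxidation and the export of citrate for lipid synthesis, and the uncoupling proteins of the same family let protons or fatty acid anions cross the membrane. LSD1 is a histone demethylase that removes methyl groups from H3K4me1 and H3K4me2, and H3K4me2 marks active or poised promoters and enhancers.

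LSD1 binding was mapped by ChIP-seq in liver of wild-type C57BL/6 mice. H3K4me2 was mapped in liver of 2 further groups, both LSD1 fl/fl on C57BL/6. The control mice, which the labels call GFP control, received AAV8-TBG-GFP, and the LSD1-LKO mice received AAV8-TBG-Cre. The TBG promoter, that of thyroxine-binding globulin, is specific to hepatocytes, so deletion in other liver cells is not expected by design. According to the methods, viruses were injected at 6 to 7 weeks of age and tissues were collected after 4 to 5 weeks of high-fat diet, but the diet of the animals used for ChIP-seq is not named separately. Each group had 2 ChIP libraries, and nothing in the labels says whether the 2 came from separate mice. With 2 libraries against 2, an exact two-sided permutation test cannot give a p below 0.333, so no single member can pass a threshold of 0.05 by that test, and no model that estimates a variance was run on these lists.

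The data were 3 lists of peaks shared by both libraries of a group, with 14584 LSD1 peaks, 43891 control H3K4me2 peaks and 50675 LSD1-LKO H3K4me2 peaks. The lists hold no reads, so the depth of each library is unknown. A promoter without a listed peak had no peak found in both libraries, which is not the same as no signal. No list measured LSD1 in LSD1-LKO liver, and the deletion itself was not checked here. Hepatocyte markers such as Alb, Apob and Hnf4a carried H3K4me2 at 8 of 8 promoters in either list, 6 of them in the control list and 8 in the LSD1-LKO list. Markers of Kupffer and other immune cells were marked at 0 of 4 promoters, with Ptprc, Adgre1, Clec4f and Cd68 all without a peak, and germ cell markers at 0 of 3. Endothelial markers were marked at 1 of 4 promoters, stellate markers at 2 of 4, skeletal muscle markers at 1 of 3, neuronal markers at 1 of 3 and brown fat markers at 2 of 3, so H3K4me2 was also listed at some markers of other cells. In whole liver, a change in the share of a cell type and a change in each cell cannot be told apart.

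Promoter sequences are given for the ADP/ATP carriers and the uncoupling proteins, since close relatives in these groups differed in H3K4me2. The ADP/ATP carriers exchange matrix ATP for cytosolic ADP. Each window spans 250 bases before to 50 bases after the TSS of the RefSeq table for GRCm38.p6 (mm10) and is written 5′ to 3′ on the strand of the gene, with every CG in capitals. Slc25a5 (chrX:36795347-36795646, plus strand) had 18 CG in 300 bases, Slc25a4 (chr8:46211013-46211312, minus strand) had 25 and Slc25a31 (chr3:40708621-40708920, plus strand) had 22.
Slc25a5: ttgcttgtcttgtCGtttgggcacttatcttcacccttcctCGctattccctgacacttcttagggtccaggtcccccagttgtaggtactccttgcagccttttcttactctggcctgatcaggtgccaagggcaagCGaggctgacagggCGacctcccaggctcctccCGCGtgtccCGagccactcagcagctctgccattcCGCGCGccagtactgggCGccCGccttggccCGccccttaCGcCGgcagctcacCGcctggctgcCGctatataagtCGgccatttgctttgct
Slc25a4: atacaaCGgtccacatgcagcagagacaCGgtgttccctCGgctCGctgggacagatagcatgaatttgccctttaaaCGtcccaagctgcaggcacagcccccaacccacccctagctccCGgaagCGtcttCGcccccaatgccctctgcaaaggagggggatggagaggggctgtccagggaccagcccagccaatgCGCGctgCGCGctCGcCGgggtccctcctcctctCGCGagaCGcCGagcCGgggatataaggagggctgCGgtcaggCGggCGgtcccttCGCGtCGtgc
Slc25a31: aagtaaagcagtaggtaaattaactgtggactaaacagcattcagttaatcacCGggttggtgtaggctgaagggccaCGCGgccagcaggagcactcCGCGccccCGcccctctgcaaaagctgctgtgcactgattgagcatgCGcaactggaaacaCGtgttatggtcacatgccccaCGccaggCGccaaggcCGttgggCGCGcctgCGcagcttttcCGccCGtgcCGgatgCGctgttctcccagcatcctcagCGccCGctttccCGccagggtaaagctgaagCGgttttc

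Among the uncoupling proteins, the Ucp1 window (chr8:83290098-83290397, plus strand) had 15 CG, the Ucp2 window (chr7:100493108-100493407, plus strand) had 21 and the Ucp3 window (chr7:100472741-100473040, plus strand) had 5. H3K4me2 peaks covered all 300 bases of the Ucp2 window in each of the 4 libraries and 0 bases of the Ucp1 and Ucp3 windows.
Ucp1: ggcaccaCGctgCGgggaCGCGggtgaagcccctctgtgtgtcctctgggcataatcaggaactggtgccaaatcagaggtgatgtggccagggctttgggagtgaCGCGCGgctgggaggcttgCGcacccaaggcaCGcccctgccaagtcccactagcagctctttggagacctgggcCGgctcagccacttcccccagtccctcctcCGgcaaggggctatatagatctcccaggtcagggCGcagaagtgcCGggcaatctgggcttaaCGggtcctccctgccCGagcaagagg
Ucp2: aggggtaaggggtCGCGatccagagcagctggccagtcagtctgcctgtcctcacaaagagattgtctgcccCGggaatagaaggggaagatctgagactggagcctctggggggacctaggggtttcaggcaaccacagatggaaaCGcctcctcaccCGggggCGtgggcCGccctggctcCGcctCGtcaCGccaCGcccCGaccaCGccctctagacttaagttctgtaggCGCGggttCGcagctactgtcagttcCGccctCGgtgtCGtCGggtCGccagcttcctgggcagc
Ucp3: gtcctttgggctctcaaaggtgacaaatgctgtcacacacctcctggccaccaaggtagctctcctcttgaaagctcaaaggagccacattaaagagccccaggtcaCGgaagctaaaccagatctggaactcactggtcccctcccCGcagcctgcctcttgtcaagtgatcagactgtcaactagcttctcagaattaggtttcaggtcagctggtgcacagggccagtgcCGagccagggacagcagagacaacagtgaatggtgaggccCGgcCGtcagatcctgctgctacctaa

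A further 3 promoters are shown for members on which the comparison of control and LSD1-LKO liver or of LSD1 ranks turns. Slc25a42 (chr8:70212232-70212531, minus strand), which carries coenzyme A into mitochondria, and Slc25a10 (chr11:120491587-120491886, plus strand), the dicarboxylate carrier, are shown for their H3K4me2 coverage. Over the whole promoter, the control and LSD1-LKO libraries did not overlap, with LSD1-LKO lower at the first and higher at the second. This does not hold for the printed Slc25a10 window, where 0 and 300 bases were covered in control and 80 and 161 in LSD1-LKO. Slc25a29 (chr12:108835827-108836126, minus strand), a carrier of basic amino acids, had the highest-ranked LSD1 peak of the family and 32 CG in its window.
Slc25a42: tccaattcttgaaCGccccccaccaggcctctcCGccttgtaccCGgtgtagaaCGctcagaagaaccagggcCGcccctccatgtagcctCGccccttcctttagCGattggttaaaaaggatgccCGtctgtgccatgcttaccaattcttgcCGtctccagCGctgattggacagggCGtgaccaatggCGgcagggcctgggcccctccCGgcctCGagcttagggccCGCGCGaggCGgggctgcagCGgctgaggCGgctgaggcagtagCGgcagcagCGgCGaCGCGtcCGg
Slc25a10: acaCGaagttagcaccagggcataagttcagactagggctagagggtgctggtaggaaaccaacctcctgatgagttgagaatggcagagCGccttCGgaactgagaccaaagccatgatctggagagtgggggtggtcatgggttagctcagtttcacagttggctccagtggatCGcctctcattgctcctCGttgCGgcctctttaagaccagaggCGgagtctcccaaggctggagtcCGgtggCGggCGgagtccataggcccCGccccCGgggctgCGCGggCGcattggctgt
Slc25a29: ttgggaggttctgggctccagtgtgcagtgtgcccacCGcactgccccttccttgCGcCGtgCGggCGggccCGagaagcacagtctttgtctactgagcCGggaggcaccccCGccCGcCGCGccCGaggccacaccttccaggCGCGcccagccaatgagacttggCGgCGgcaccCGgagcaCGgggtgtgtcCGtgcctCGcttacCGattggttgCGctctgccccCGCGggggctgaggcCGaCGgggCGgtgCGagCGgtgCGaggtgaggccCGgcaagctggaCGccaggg

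For the next LSD1 peaks by rank, those of Slc25a35 (chr11:68967838-68968087, plus strand) and Slc25a47 (chr12:108850346-108850595, plus strand), the central 250 bases of the peak are given from the GRCm38.p6 genome. The Slc25a35 stretch held 16 CG and the Slc25a47 stretch 6.
Slc25a35: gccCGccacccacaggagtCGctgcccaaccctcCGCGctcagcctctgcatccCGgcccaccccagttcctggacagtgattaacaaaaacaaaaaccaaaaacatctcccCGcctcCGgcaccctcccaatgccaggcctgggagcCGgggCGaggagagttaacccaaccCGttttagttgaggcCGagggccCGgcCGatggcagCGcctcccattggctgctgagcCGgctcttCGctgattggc
Slc25a47: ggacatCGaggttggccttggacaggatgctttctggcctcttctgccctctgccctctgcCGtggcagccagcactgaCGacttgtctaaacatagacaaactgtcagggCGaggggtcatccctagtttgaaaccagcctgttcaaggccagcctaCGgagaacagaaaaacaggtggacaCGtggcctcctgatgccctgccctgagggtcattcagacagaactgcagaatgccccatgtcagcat

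Most carrier promoters carried H3K4me2 in liver. In the control list 40 of 50 members had an H3K4me2 promoter peak (80.0%, 95% Wilson interval 67.0 to 88.8%, which covers counting error only), against 58.8% of all protein-coding genes. In the LSD1-LKO list 41 members had one (82.0%), against 58.9% of all genes. Both lists marked 39 members (78.0%), against 55.7% of all genes, and neither list marked 8 (16.0%), against 38.0%.

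The 8 members without H3K4me2 in either list were Ucp1, Ucp3, Slc25a2, Slc25a4, Slc25a18, Slc25a31, Slc25a41 and Slc25a54. Most of them are known from tissues other than liver. Ucp1 is the uncoupling protein of brown fat, Ucp3 that of skeletal muscle, Slc25a4 the ADP/ATP carrier of heart and muscle, Slc25a31 the ADP/ATP carrier of testis, and Slc25a18 a glutamate carrier of brain. A list of carriers with a known role in liver, which was Slc25a1, Slc25a3, Slc25a5, Slc25a10, Slc25a11, Slc25a13, Slc25a15, Slc25a17, Slc25a20, Slc25a22, Slc25a42 and Slc25a47, was marked at 12 of 12 promoters in both lists. Over all genes, 55.7% were marked in both H3K4me2 lists. This liver list and a list of carriers known mainly from other tissues were chosen with earlier results of these data known. The list of other tissues was marked at 3 of 9 promoters. Those 3 were Slc25a12, the aspartate/glutamate carrier of heart, muscle and brain, Slc25a27, an uncoupling protein relative of brain, and Slc25a37, the iron carrier mitoferrin of erythroid cells. The promoter of Slc25a27 also holds a TSS of Cyp39a1, a cytochrome P450 gene on the other strand, and H3K4me2 there cannot be assigned to 1 of the 2 genes. The promoters of 8 members hold a TSS of another protein-coding gene, and the same limit applies to each. Among them are Slc25a11 of the liver list (Rnf167), Slc25a23 (Crb3), Slc25a25 (Naif1) and Slc25a40 (Dbf4).

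**Figure D1:**
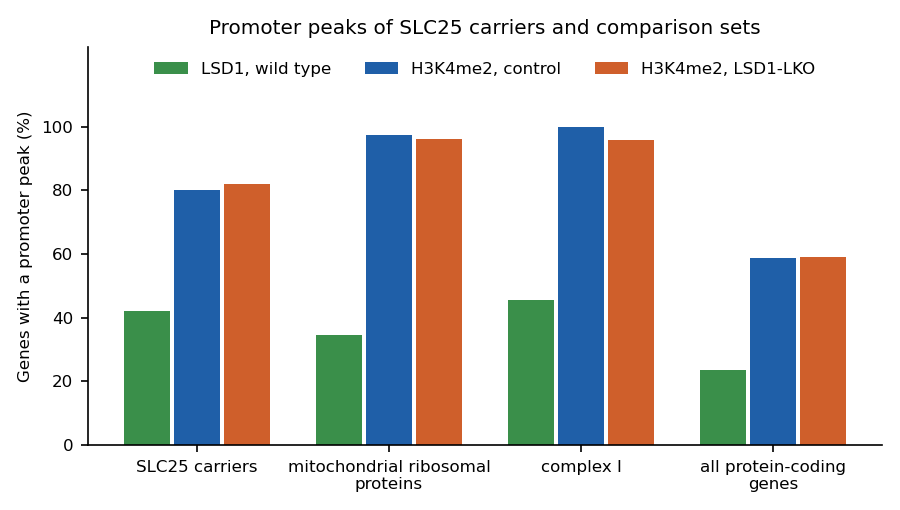
Percent of genes with a promoter peak (vertical axis) for LSD1 in wild-type liver and H3K4me2 in control and LSD1-LKO liver, in the 50 SLC25 carriers, 78 mitochondrial ribosomal protein genes, 46 complex I genes and all 21853 protein-coding genes. The bars for the carriers reach 42%, 80.0% and 82.0%, against 23.6%, 58.8% and 58.9% for all genes.

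The members were then grouped by what they carry, to be read beside the 55.7% of all genes marked in both lists. All 5 carriers of di- and tricarboxylates and carnitine (Slc25a1, Slc25a10, Slc25a11, Slc25a20, Slc25a21), all 9 carriers of cofactors and nucleotides (among them Slc25a16, Slc25a17, Slc25a26, Slc25a32, Slc25a33, Slc25a36, Slc25a42, Slc25a51) and both mitoferrins (Slc25a28, Slc25a37) were marked in both lists. Carriers of amino acids and glutathione were marked at 9 of 11 promoters, with Slc25a2, an ornithine carrier, and Slc25a18 as the exceptions. The phosphate and ATP-Mg carriers were marked at 4 of 5 promoters (Slc25a3, Slc25a23, Slc25a24 and Slc25a25), and Slc25a41 was not marked. The uncoupling proteins and their relatives were marked at 4 of 6 promoters (Ucp2, Slc25a14, Slc25a27 and Slc25a30), and the ADP/ATP carriers at 1 of 3 (Slc25a5). The 9 members with other or unsettled substrates included every member marked in 1 list only.

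Neighbouring members of the family could differ in the mark. In 5 places 2 members lie next to each other among the protein-coding genes. Ucp3 and Ucp2 lie 6904 bp apart on chromosome 7, and Ucp2 alone was marked. Slc25a41 and Slc25a23 lie 2056 bp apart on chromosome 17, and Slc25a23 alone was marked, at a promoter that also holds a TSS of Crb3. Slc25a54 and Slc25a24 lie 6461 bp apart on chromosome 3, and Slc25a24 alone was marked. On chromosome 12 Slc25a29 and Slc25a47 are separated by 162 bp and run in opposite directions, with TSSs 15246 bp apart, and both were marked in both lists and carried LSD1. Slc25a43 and Slc25a5 lie 18448 bp apart on the X chromosome, where Slc25a5 was marked in both lists and Slc25a43 in the LSD1-LKO list only.

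The unmarked promoters had a lower median CpG ratio than the marked ones, with exceptions on both sides. Over the promoter windows, the median ratio of observed to expected CpG was 0.471 in the 42 members marked in either list and 0.340 in the 8 others, while it was 0.521 and 0.191 in all genes of the same classes. GC content had medians of 53.0% and 49.2% in the members. Slc25a18 and Slc25a41 had CpG ratios of 0.204 and 0.203, while the unmarked Slc25a4 had 0.736 and the unmarked Slc25a31 had 0.594. In the other direction, Slc25a47 and Slc25a34 were marked with ratios of 0.197 and 0.214.

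**Figure D2:**
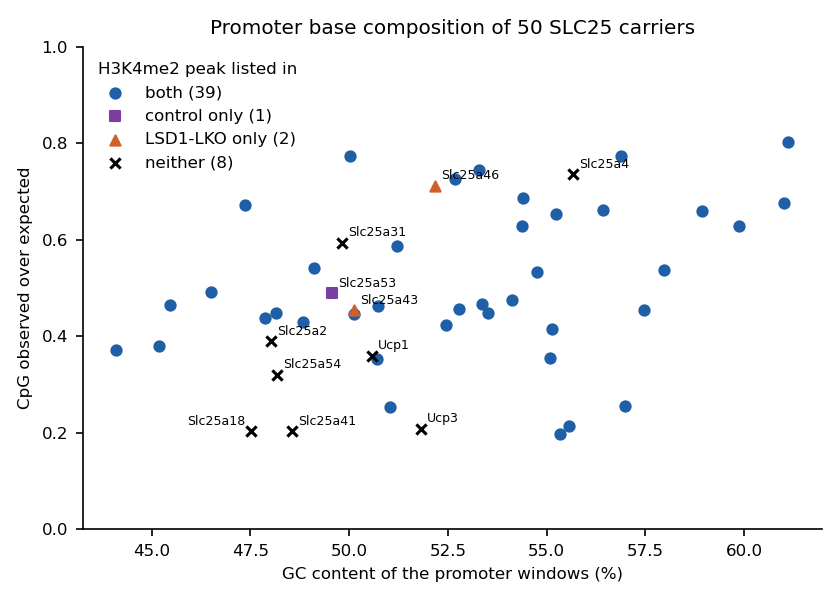
GC content of the promoter windows in percent (horizontal axis) and the ratio of observed to expected CpG (vertical axis) for the 50 carriers, by the H3K4me2 list in which they had a promoter peak. The unmarked Slc25a4, at 0.736, and Slc25a31, at 0.594, lie among the marked members, and the other 6 unmarked members lie at or below 0.390.

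Every substrate group had a carrier with a listed LSD1 promoter peak in wild-type liver, but the evidence was weak in most groups. Requiring a MACS q-value of 0.05 from each library left peaks at Slc25a29, Slc25a33 and Slc25a47 alone. These belong to the groups of amino acids and glutathione, of cofactors and nucleotides, and of other or unsettled substrates. The ADP/ATP group rested on Slc25a31, with −log10 q-values of 0.0475 and 0.4056 in the first- and second-listed library. An LSD1 promoter peak was found at 21 of 50 members (42%, Wilson interval 29.4 to 55.8%), against 23.6% of all protein-coding genes. LSD1 peaks lie mostly at promoters with H3K4me2, and among the members with H3K4me2 in either list 20 of 42 had an LSD1 peak (47.6%, Wilson interval 33.4 to 62.3%), against 37.6% of all genes so marked, a value within that interval. Of the 8 unmarked members 1 had an LSD1 peak, against 0.880% of all unmarked genes.

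LSD1 promoter peaks were found at 23.6% of all protein-coding genes and at 37.6% of those with H3K4me2 in either list. By substrate, LSD1 peaks were found at 7 of 11 carriers of amino acids and glutathione. These were Slc25a12 (aspartate/glutamate), Slc25a15 (ornithine), Slc25a22 (glutamate), Slc25a29 (basic amino acids), Slc25a38 (glycine, for heme synthesis), and Slc25a39 and Slc25a40 (glutathione). They were found at 4 of 9 carriers of cofactors and nucleotides, namely Slc25a17, a peroxisomal carrier, Slc25a32 (folate and FAD), Slc25a33 (pyrimidine nucleotides) and Slc25a51 (NAD+). The remaining groups had LSD1 at Ucp2, Slc25a27 and Slc25a30 (3 of 6 uncoupling proteins and relatives), Slc25a23 and Slc25a25 (2 of 5 phosphate and ATP-Mg carriers), Slc25a1 (1 of 5 carriers of di- and tricarboxylates and carnitine), Slc25a28 (1 of 2 mitoferrins), Slc25a31 (1 of 3 ADP/ATP carriers) and Slc25a35 and Slc25a47 (2 of 9 others). The liver list had LSD1 at 5 of 12 promoters and the list of other tissues at 3 of 9. Groups of this size allow no statement on a difference between them.

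The peaks were ranked by their percentile within the LSD1 list, taken from the average of both libraries' −log10 p-values. Slc25a29 ranked highest in the family at percentile 98.1, enriched 5.87- and 5.93-fold over background in the first- and second-listed library. Its peak, chr12:108835574-108835994, covered the TSS. The promoter window printed above was covered by it over 168 bases in the first-listed and 300 in the second-listed library.

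Slc25a35, a carrier of unsettled substrate, ranked at percentile 97.8 with fold enrichments of 3.24 and 8.71 (chr11:68967642-68968283). Slc25a47, a carrier found mainly in liver, ranked at 97.3 with 7.98 and 3.03 (chr12:108850116-108850826). The 2 libraries differed by more than a factor of 2 at both, and in opposite directions. The Slc25a47 peak did not cover a TSS, and its center lay 658 bp upstream of the nearest one, within an intron of an annotated transcript. Slc25a38 ranked at 92.0, with fold enrichments of 2.61 and 6.69.

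Below these, Slc25a32 ranked at percentile 86.6 with 5.01- and 3.43-fold enrichment, and the center of its peak was nearer to the TSS of Dcaf13, at 40 bp, than to its own. Slc25a33 ranked at 84.6 with 4.83- and 3.09-fold enrichment. Slc25a12 ranked at 80.7 with 3.02 and 4.31, and Slc25a1, the citrate carrier, at 77.5 with 3.34 and 4.15. These 4 peaks differed less between libraries than those of Slc25a35 and Slc25a47.

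At the lower end, Slc25a31 ranked at percentile 13.7 with fold enrichments of 2.2 and 2.73, Slc25a17 at 15.9 with 2.85 and 2.13, and Ucp2 at 17.2 with 2.15 and 2.87. The low-ranked Slc25a31 peak (chr3:40708537-40708819) was also the single LSD1 peak of the family at a promoter without H3K4me2, and it covered 199 and 251 bases of the window printed above. The other 10 bound members, Slc25a39, Slc25a15, Slc25a22, Slc25a30, Slc25a23, Slc25a40, Slc25a28, Slc25a25, Slc25a51 and Slc25a27, lay between percentiles 37.0 and 73.1. The median over the 21 bound members was 66.1, against 72.4 over all 5163 genes with an LSD1 promoter peak.

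**Figure D3:**
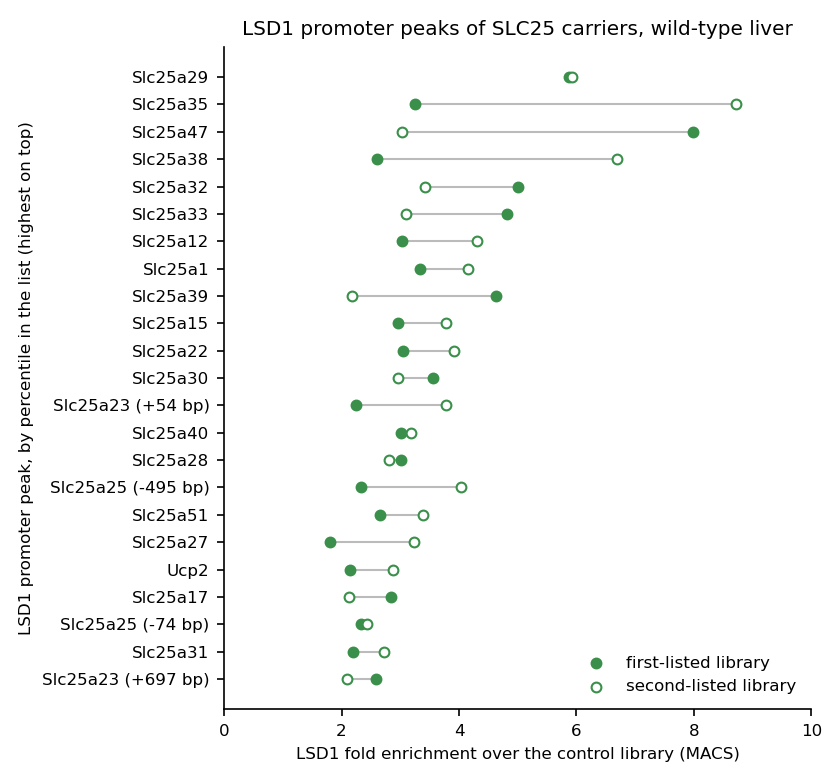
LSD1 fold enrichment over the control library (horizontal axis) of the 23 LSD1 promoter peaks of SLC25 carriers in wild-type liver, ordered by percentile in the LSD1 list. Filled points are the first-listed and open points the second-listed library, and members with 2 peaks are given with the distance of the peak center from the TSS. The points of Slc25a29 nearly coincide, at 5.87 and 5.93, while those of Slc25a35 stand at 3.24 and 8.71.

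The family had 23 LSD1 promoter peaks, with 2 each at Slc25a23 and Slc25a25. Their centers lay within 100 bp of a TSS of the member for 10 peaks, within 250 bp for 15 and within 500 bp for 20. Of the 23 peaks, 14 covered a TSS. The centers fell on an untranslated part of an exon for 8 peaks, an intron for 8, sequence upstream of the gene for 5 and an exon of a non-coding transcript for 2. Another protein-coding gene had a promoter under 5 of the peaks. The first-listed peak widths ranged from 283 to 1057 bp, with a median of 489 bp, and the second-listed from 306 to 1755 bp, with a median of 756 bp.

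LSD1 peaks lay on H3K4me2. Of the 23 LSD1 peaks, 20 overlapped a control H3K4me2 peak (87.0%), against 91.7% of the 5113 LSD1 promoter peaks of all genes. The 3 exceptions were the peaks of Slc25a31 and Ucp2 and the upstream peak of Slc25a25. In the LSD1-LKO list 21 of the same positions carried H3K4me2, and 19 did in both lists. In the first-listed intervals, the positions of the Ucp2 peak and of the upstream Slc25a25 peak carried H3K4me2 in the LSD1-LKO list alone. That of the Slc25a32 peak carried it in the control list alone. The second-listed control interval at Ucp2 and the second-listed LSD1-LKO interval at Slc25a32 did overlap the LSD1 peak of the same gene. In the first-listed LSD1-LKO library the H3K4me2 peaks covered 0 of the 250 bases printed for the Slc25a47 peak, but in the second-listed one all 250.

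MACS gave p-values at or below 0.01 in both libraries for 19 of the 23 peaks (82.6%), against 90.7% of the 5113 LSD1 promoter peaks of all genes. A q-value of 0.05 in both libraries was met at 3 peaks, those of Slc25a29, Slc25a33 and Slc25a47, against 25.5% of all. A p-value of 1e-05 in both was met at 1 peak, that of Slc25a29, against 21.3%. LSD1 peaks inside the gene but outside the promoter were found at 11 members (22%), against 14.8% of all genes. These were Slc25a13, Slc25a15, Slc25a21, Slc25a23, Slc25a26, Slc25a28, Slc25a37, Slc25a40, Slc25a42, Slc25a47 and Slc25a54, with 3 such peaks in Slc25a37 and 2 each in Slc25a15 and Slc25a42.

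The comparison of control with LSD1-LKO liver asked whether loss of the demethylase in hepatocytes changed H3K4me2 at the carrier promoters. Few members had a promoter peak in 1 list only. Slc25a53, on the X chromosome, was marked in the control list only (2.00% of members, against 3.09% of all genes). Slc25a43 and Slc25a46 were marked in the LSD1-LKO list only (4%, against 3.18%). Both shares are near those of all genes.

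Slc25a53 had 1148 and 1453 bp of its promoter covered in the control libraries and 0 in both LSD1-LKO libraries. Slc25a46, which is anchored in the outer mitochondrial membrane and acts in mitochondrial dynamics, had 0 bp in both control libraries and 781 and 1325 bp in the LSD1-LKO libraries. Slc25a43 had 0 bp in the control libraries and 434 and 916 bp in the LSD1-LKO libraries. Each of these zeros follows from the absence of a shared peak in that list. The promoters of Slc25a46 and Slc25a53 also hold a TSS of another coding gene, B930094E09Rik and Zcchc18. The H3K4me2 peaks of all 3 were low to middling in their lists, with percentiles of 63.2 for Slc25a53, 57.7 for Slc25a46 and 29.1 for Slc25a43.

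Over the whole family, the covered length did not move in 1 direction. In the first-listed libraries the median change, LSD1-LKO minus control, was −167.5 bp over the 42 marked members, with 26 shorter (61.9%, against 60.1% of all marked genes) and 16 longer (38.1%, against 39.4%). The median of all marked genes was −111 bp. In the second-listed libraries the median change of the members was +137.5 bp, with 17 shorter, 24 longer and 1 equal. That of all 13553 marked genes was +12 bp, with 5701 shorter, 6953 longer and 899 equal. The direction of the median thus depended on which library of each group was used. Of the 39 members marked in both lists, 11 were shorter and 9 longer in both of these comparisons. Another 13 were shorter with the first-listed and longer with the second-listed libraries, 5 were the reverse, and 1, Slc25a15, was equal in the second-listed libraries. Shares of all genes are not given for these patterns, so they cannot be read as particular to the carriers. Libraries were matched by listed order only, which carries no replicate number, and the crossed matching was not counted.

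**Figure D4:**
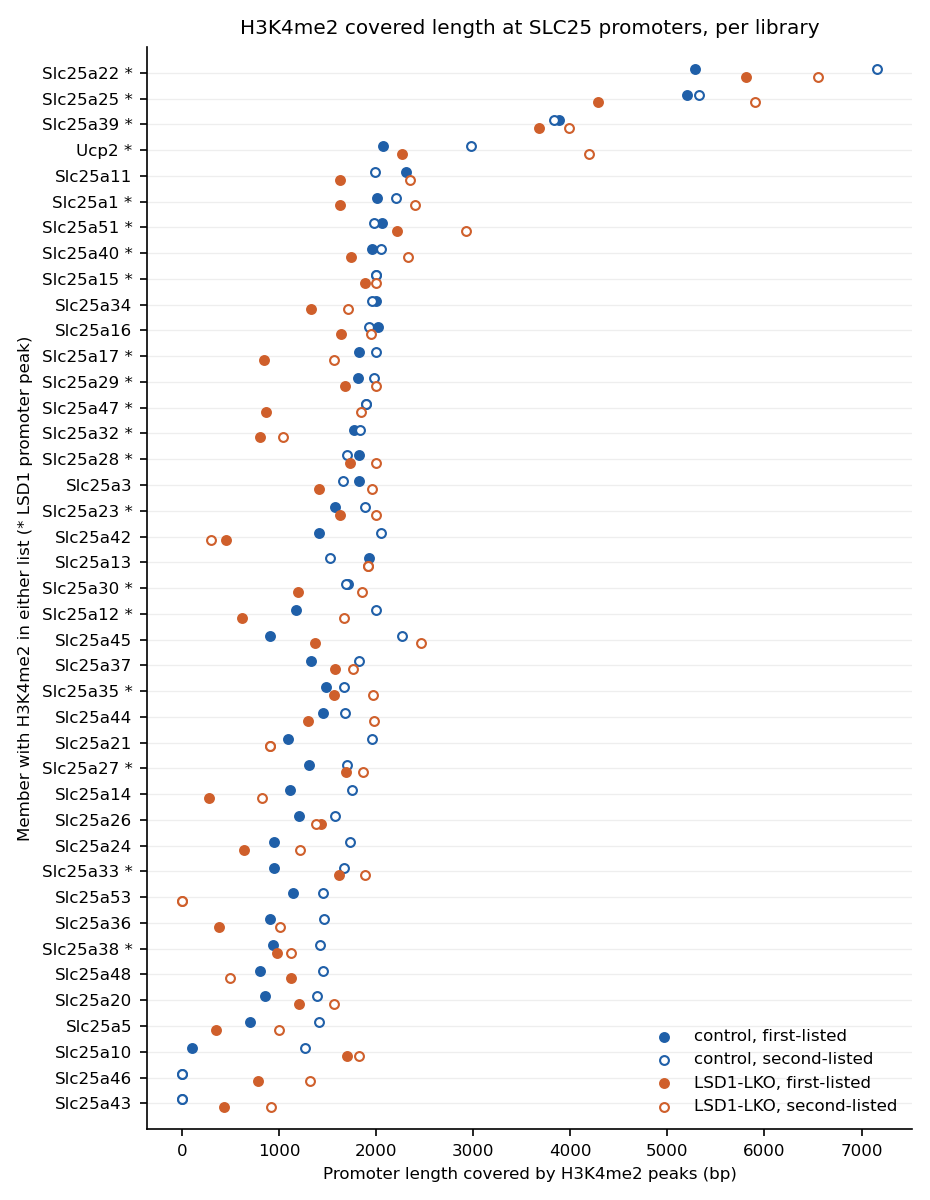
Promoter length covered by H3K4me2 peaks in bp (horizontal axis) for 41 of the 42 carriers with H3K4me2 in either list, ordered by the control mean, with control libraries in blue and LSD1-LKO libraries in orange (filled, first-listed, and open, second-listed). The points of Slc25a42 separate, at 1412 and 2050 bp in control and 453 and 301 bp in LSD1-LKO, and those of most members overlap.

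Both LSD1-LKO libraries lay below both control libraries at 8 of 42 members (19% of them, against 17.3% of all marked genes) and above both at 4 (9.52%, against 14.6%). The 8 were Slc25a14, Slc25a17, Slc25a21, Slc25a32, Slc25a34, Slc25a42, Slc25a47 and Slc25a53, and the 4 were Slc25a10, Slc25a43, Slc25a46 and Slc25a51. For each of them the exact permutation test over libraries gave p = 0.333, the smallest it can give. These shares are close to those of all genes. Without the 3 members marked in 1 list only, 7 lay below, 2 above and 30 overlapped.

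Among the carriers of cofactors and nucleotides, Slc25a42 (coenzyme A) had 1412 and 2050 bp covered in control and 453 and 301 bp in LSD1-LKO liver. The control list had a peak on the transcribed side of its TSS, chr8:70209944-70212124, that no LSD1-LKO peak overlapped in the first-listed intervals, and the LSD1-LKO list held a peak on the upstream side only. The second-listed control interval ran over both sides. In the window printed above, 0 and 300 bases were covered in control and 0 in both LSD1-LKO libraries. The percentile of its highest H3K4me2 peak was 87.6 in the control list and 39.3 in the LSD1-LKO list.

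Slc25a17, the peroxisomal carrier of cofactors, had 1827 and 2001 bp in control and 843 and 1571 bp in LSD1-LKO liver, and Slc25a32 had 1768 and 1839 bp against 802 and 1046 bp. The groups did not overlap at either gene. The percentile of the highest H3K4me2 peak went the other way. It was 76.4 in the control and 79.2 in the LSD1-LKO list at Slc25a17, and 84.3 and 91.7 at Slc25a32. Both genes had an LSD1 peak, but that of Slc25a17 ranked low, at percentile 15.9. The Slc25a32 promoter also holds a TSS of Dcaf13, and the marks there cannot be assigned to a single gene. Slc25a51, the NAD+ carrier, had 2061 and 1984 bp in control and 2218 and 2924 bp in LSD1-LKO liver, so that LSD1-LKO lay above. Its LSD1-LKO peaks at percentiles 0.697 and 11.8 overlapped no control peak in the first-listed intervals. The percentile of its highest H3K4me2 peak went the other way, with 86.4 in the control and 58.7 in the LSD1-LKO list. Slc25a33 had 945 and 1667 bp in control and 1618 and 1890 bp in LSD1-LKO liver, which overlapped.

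Slc25a16, a carrier linked to coenzyme A, had 2021 and 1928 bp against 1642 and 1946 bp, and Slc25a26, the S-adenosylmethionine carrier, 1204 and 1576 bp against 1434 and 1384 bp. Slc25a36, a pyrimidine nucleotide carrier, had 911 and 1469 bp against 384 and 1007 bp. The groups overlapped at these 3 members.

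Among the carriers of di- and tricarboxylates and carnitine, Slc25a10 had 102 and 1267 bp in control and 1704 and 1825 bp in LSD1-LKO liver, with no overlap. The LSD1-LKO list had a peak upstream of the TSS, chr11:120489901-120491509, besides the one over the gene. In the first-listed intervals, the control list had within the promoter only a peak over the gene. A control peak that overlapped the upstream one ended outside the promoter. The second-listed control interval of the peak over the gene started upstream of the TSS, at chr11:120491574. The percentile of the highest peak was 72.9 in the control and 90.0 in the LSD1-LKO list. This was the largest difference in the first-listed libraries among members marked in both lists, at +1602 bp, although 1 control library lay far below the other.

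Slc25a1, the citrate carrier, had 2014 and 2206 bp in control and 1633 and 2400 bp in LSD1-LKO liver. Slc25a20, which carries carnitine and acylcarnitine for fatty acid oxidation, had 854 and 1390 bp against 1210 and 1570 bp. Slc25a11, the 2-oxoglutarate carrier of the malate-aspartate shuttle, had 2313 and 1986 bp against 1631 and 2348 bp. The groups overlapped at these 3 genes. At Slc25a21, the oxodicarboxylate carrier, control had 1090 and 1959 bp and LSD1-LKO 909 and 906 bp, without overlap. The percentile of its highest H3K4me2 peak was 70.5 in the control and 71.4 in the LSD1-LKO list.

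The amino acid and glutathione carriers showed no separated member. Slc25a13, the aspartate/glutamate carrier of liver, had 1926 and 1521 bp in control and 1917 and 1916 bp in LSD1-LKO liver, and Slc25a12 had 1178 and 2001 bp against 618 and 1669 bp. Slc25a15, the ornithine carrier of the urea cycle, was covered over its whole 2001 bp in both control libraries and over 1886 and 2001 bp in LSD1-LKO. Slc25a22, a glutamate carrier with 13 TSSs, had 5282 and 7161 bp against 5805 and 6548 bp. At all 4 the libraries of the groups overlapped or met at the same value.

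The same held for Slc25a29, with 1819 and 1982 bp in control and 1683 and 2001 bp in LSD1-LKO liver, and for Slc25a38, with 941 and 1427 bp against 984 and 1128 bp. The glutathione carriers Slc25a39 and Slc25a40 had 3887 and 3829 bp against 3673 and 3990 bp, and 1960 and 2052 bp against 1746 and 2326 bp. Slc25a44, a carrier of branched-chain amino acids, had 1450 and 1684 bp against 1296 and 1976 bp. At Slc25a38 the LSD1-LKO values lay between the control values, and at the other 4 of these members they lay on either side of them. Of the 9 marked members of the group, 7 were shorter in the first-listed libraries (median −136 bp), beside 60.1% of all marked genes, but in the second-listed libraries 3 were shorter, 5 longer and 1 equal (median +19 bp).

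Of the ADP/ATP and phosphate carriers, Slc25a5, the marked ADP/ATP carrier, had 706 and 1413 bp in control and 348 and 998 bp in LSD1-LKO liver. The groups overlapped, and its H3K4me2 peaks ranked low in both lists, at percentiles 16.8 and 9.57. In the window printed above its peaks covered 73 and 300 bases in control and 101 and 300 bases in LSD1-LKO liver. In the first-listed intervals the control and LSD1-LKO peaks lay on different stretches and did not overlap each other, while the second-listed intervals did. Slc25a3, which brings in the phosphate for ATP synthesis, had 1820 and 1663 bp against 1414 and 1958 bp.

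The ATP-Mg carriers overlapped as well. Slc25a23 had 1576 and 1887 bp in control and 1628 and 2001 bp in LSD1-LKO liver. Slc25a24 had 952 and 1729 bp against 639 and 1215 bp, and Slc25a25 had 5207 and 5326 bp against 4282 and 5899 bp. Ucp2, the uncoupling protein marked in liver, had 2067 and 2975 bp against 2264 and 4197 bp. Among its relatives, Slc25a27 had 1307 and 1700 bp against 1686 and 1870 bp and Slc25a30 had 1711 and 1690 bp against 1192 and 1855 bp, all overlapping. Slc25a14, on the X chromosome, had 1109 and 1753 bp in control and 277 and 826 bp in LSD1-LKO liver, without overlap, and the percentile of its peak was 59.3 in the control and 5.18 in the LSD1-LKO list.

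The mitoferrins, which import iron, overlapped, with Slc25a28 at 1826 and 1702 bp in control and 1733 and 2001 bp in LSD1-LKO liver and Slc25a37 at 1334 and 1821 bp against 1574 and 1761 bp. Of the carriers with other or unsettled substrates, Slc25a47 had 1899 and 1897 bp in control and 872 and 1848 bp in LSD1-LKO liver. The groups did not overlap, but the second-listed LSD1-LKO library lay only 49 bp below control. Slc25a34 had 2001 and 1957 bp against 1327 and 1707 bp, also without overlap. The percentile of the highest H3K4me2 peak at Slc25a47 was 91.4 in the control and 77.2 in the LSD1-LKO list. At Slc25a34 it was 83.1 and 63.9.

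Overlap was found at the last 3 members. Slc25a35 had 1482 and 1665 bp in control and 1568 and 1973 bp in LSD1-LKO liver, Slc25a45 had 907 and 2264 bp against 1376 and 2461 bp, and Slc25a48 had 808 and 1455 bp against 1126 and 493 bp. At Slc25a45 the 2 libraries of each group lay farther apart than the groups did.

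The members bound by LSD1 in wild-type liver and the others were compared in the same way, and the sign of the median again depended on the library for the bound members. The 20 bound and marked members had a median change of −125.5 bp in the first-listed and +163 bp in the second-listed libraries, and the 22 marked members without LSD1 −247 bp and −21 bp. All genes of these classes had −112.5 and +4 bp with LSD1 and −109 and +18 bp without. The percentile of a member's highest H3K4me2 peak is its position within a list, and the lists differ in length, with 43891 peaks in control and 50675 in LSD1-LKO, so a difference of percentiles is a description and not a change of signal. Its median was −2.94 points over the 39 members marked in both lists, beside 0.05 over all genes, and +0.37 with the second-listed libraries alone.

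Along the promoters, the listed H3K4me2 peaks were read by position. At 50 bp upstream of the 5′-most TSS, peaks covered 64.3% and 85.7% of the 42 marked members in the control libraries and 42.9% and 78.6% in the LSD1-LKO libraries. The first-listed libraries differed more here than the second-listed ones, and the 4 values overlap between groups. For all marked genes the same position gave 58.2% and 73.9% in the control libraries, with 50.9% and 74.1% in LSD1-LKO. At 550 bp downstream of the TSS the members had 83.3% and 92.9% in both groups. At 650 bp downstream the first-listed libraries differed the other way, with 73.8% in control and 85.7% in LSD1-LKO, and the second-listed ones had 92.9% and 90.5%. LSD1 peaks covered 26.2% and 35.7% of these members at the TSS and 2.38% at 1000 bp on either side.

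**Figure D5:**
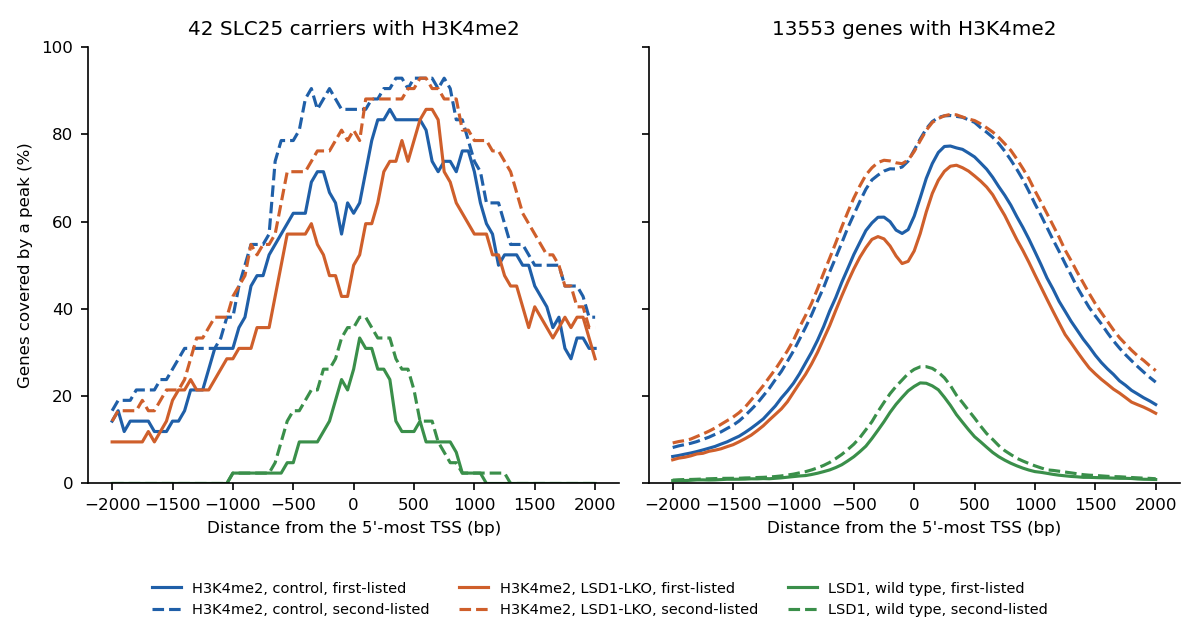
Percent of genes covered by a peak (vertical axis) against the distance from the 5′-most TSS in bp (horizontal axis, positive in the direction of transcription), for 42 carriers and 13553 genes with H3K4me2 in either list. Solid lines are the first-listed and dashed lines the second-listed libraries of H3K4me2 in control, H3K4me2 in LSD1-LKO and LSD1 in wild-type liver. At −50 bp the first-listed libraries of the carriers stand at 64.3% in control and 42.9% in LSD1-LKO, and the second-listed at 85.7% and 78.6%.

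The study's RNA-seq, which was not analysed here, gave a list of mitochondrial genes with lower expression in LSD1-LKO liver, and 9 members are on it: Slc25a10, Slc25a16, Slc25a17, Slc25a20, Slc25a26, Slc25a33, Slc25a42, Slc25a47 and Slc25a51. All 9 were marked in both H3K4me2 lists, and 4 of them carried LSD1 (Slc25a17, Slc25a33, Slc25a47 and Slc25a51), a share of 44.4% beside 37.6% of all marked genes. In the first-listed libraries 4 were shorter and 5 longer, with a median change of +157 bp, and in the second-listed libraries the median was +18 bp. Both LSD1-LKO libraries lay below both control libraries at 3 of them (Slc25a17, Slc25a42 and Slc25a47), beside 17.3% of all marked genes, and above at 2 (Slc25a10 and Slc25a51), beside 14.6%. With 9 members these counts say little about the list.

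Other genes of mitochondrial transport and of the mitochondrion were read in the same way. The import machinery that inserts carriers into the inner membrane, from Tomm70a at the outer membrane to the small Tim proteins and the Timm22 complex, was marked at 10 of 10 promoters in both lists. LSD1 peaks were found at 3 of them (Timm29, Agk and Tomm70a), which is 30.0%, beside 37.6% of all marked genes. The median change of covered length was −130 bp in the first-listed and +116 bp in the second-listed libraries. Transport proteins outside the family, among them the pyruvate carrier, the VDAC channels of the outer membrane and the sideroflexins, were marked at 16 of 16 promoters in either list, with LSD1 at 8 (Mpc2, Vdac1, Vdac2, Vdac3, Sfxn2, Sfxn3, Mtch2 and Cpt2) and median changes of −34.5 and +197 bp.

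Mitochondrial ribosomal protein genes were marked in either list at 77 of 78 promoters, and 34.6% had LSD1. The complex I genes were marked at 46 of 46, and 45.7% had LSD1. Over all genes marked in either list, 37.6% had LSD1. Median changes of covered length were −90 and 0 bp for the ribosomal genes and −244 and −86.5 bp for complex I, in the first- and second-listed libraries. The 84.0% of carriers marked in either list was lower than in both of these sets, and the difference lay in the 8 unmarked members named above.

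Short motifs were counted on both strands of the 300 bases around the 5′-most TSS of each gene, from 250 before to 50 after. GGGCGG, the GC box read by SP1, was found at 31 of 42 marked members (73.8%, against 60.8% of all marked genes) and at 1 of 8 unmarked members, Slc25a31 (12.5%, against 16.0%). The GENCODE start of Slc25a4 lies upstream of the RefSeq start, and its RefSeq window printed above does hold GGGCGG. CCGGAAGT, a GABP motif, was found at Slc25a11, Slc25a20, Slc25a26 and Slc25a46 (8%, against 4.85% of all genes). CAAAGGTCA, an ERR motif, and CGCATGCG, the core of the NRF1 motif, which reads the same on both strands, were found at 0 of 50 members, against 0.339% and 2.63% of all genes. TATAAA was found at Slc25a4 alone (2.00%, against 12.6%), in the window at its GENCODE start and not in the RefSeq window printed above.

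At the centers of the LSD1 peaks, windows of the same length held GGGCGG at 14 of 23 peaks of the family (60.9%, against 62.4% of the 5113 peaks of all genes) and none of the other 4 motifs. The absence of a match says only that these letters are not in the window.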

How the data were processed

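LSD1 ChIP-seq of wild-type liver and H3K4me2 ChIP-seq of control and LSD1-LKO liver were used, with 2 libraries per group, 6 in all, of 12 samples that include controls. Control libraries are input in the labels, with no antibody named, and IgG ChIP-seq in the methods. The authors mapped reads to mm10 with Bowtie 2, ran MACS 2 for narrow peaks on each library and kept peaks found in both libraries with BEDtools 2.25.0. The deposited fold enrichment is a ratio that the authors took from MACS, of the ChIP pileup to the background that MACS estimates from the control. MACS also gave the authors the p-value and q-value of each peak, deposited as −log10. The MACS cutoff named in the methods is 0.01, but the highest p-value in the deposited lists is 0.05. The deposited columns carry no replicate numbers, and 12 columns of per-library integer scores and summit offsets were not used.

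Peak intervals of the first-listed library were the main values and those of the second-listed library an alternative. Promoters came from GENCODE mouse release 21 on GRCm38, without the mitochondrial chromosome, and 54361 TSSs of protein-coding transcripts were used. An overlap of at least 1 bp counted, and covered length was the number of promoter bases under peaks. A percentile was taken within a list, and MACS scores themselves were not compared between lists. Values were computed with Python 3.11.15, numpy 2.4.6, pandas 2.3.3, scipy 1.17.1 and pyfaidx 0.9.0.4. The overlap code was tested on planted peaks and gave 0 wrong genes of 21853. Single members were compared by the exact permutation test over libraries, and sets by counts and medians beside all genes. Shares have 95% Wilson intervals, for counting error only.

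The members and all gene lists were chosen with earlier results of these data known. Named in full were the 8 highest- and 3 lowest-ranked LSD1 members, members marked in 1 list only, the 5 largest differences of covered length in each direction, and carriers of known liver or tissue roles or on the study's list of downregulated genes. Values of other members were added. The values of 1 member are not reported here, although it is part of every count and median. The RefSeq promoter table held 39 of 50 members, and base composition and motifs were therefore read from the genome. Members not in it included Slc25a2, Slc25a26, Slc25a27, Slc25a32, Slc25a35, Slc25a37, Slc25a41, Slc25a44, Slc25a46 and Slc25a51.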

Additional observations from a re-analysis of the deposited data

How the results depend on the processing

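The 15 results were recomputed under 9 alternatives, which gave 131 values. Of these, 114 kept their sign and stayed within the spread between libraries (267 bp, or 3.62 percentile points) or, for counts, within 1.5 times, 14 moved beyond that and 3 reversed. Within these limits the median change of covered length still went to −379 bp at p of 1e-05 and −359 bp at q of 0.05, and that of percentile to −0.252 at q of 0.05. The alternatives were promoters of 500 bp and of 2 kb on either side, the 5′-most TSS only, an overlap of 50%, the second-listed library alone, the bases covered in both libraries, and MACS thresholds of p at or below 1e-05, q at or below 0.05 and p at or below 0.01 in both libraries, the last of which was chosen after seeing the data and moved none of the results. At p of 1e-05 the members with LSD1 went from 21 to 1, those with LSD1 and H3K4me2 from 20 to 1, the LSD1 peaks on control H3K4me2 from 20 to 1, the members in the LSD1-LKO list from 41 to 26 and those in the control list only from 1 to 9. At q of 0.05 the same counts were 3, 3 and 3 for LSD1 and 5 for the control list only. Members with both LSD1-LKO libraries below both control libraries went from 8 to 14 at either threshold. The control-only count was 2 with 500-bp promoters and 2 with an overlap of 50%. Shares of all genes under the alternatives are not given here, so none of these counts can be read as particular to the carriers. The second-listed library alone still meant peaks shared by both libraries. Counts of members with a peak could therefore change little there, or with the bases covered in both libraries. With the second-listed intervals the median change of covered length reversed from −167.5 to 137.5 bp and the shorter members went from 26 to 17. The median change of percentile reversed from −2.94 to 0.374 points. That last value was also 1.363 at p of 1e-05. Fewer peaks pass a stricter threshold by construction, and the cause of the other differences was not tested. No paired analysis was possible because the deposited columns carry no replicate numbers. The spread between libraries of a group and the lack of reads limit what these lists can show for a single member.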
